A study of Mus musculus with 30 samples.

Results

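The transcription factors of naive pluripotency described here are Nanog, Esrrb, Klf2, Klf4, Klf5, Tfcp2l1, Tbx3, Prdm14 and Nr5a2. They were chosen by symbol, after the Ensembl identifiers of the deposited count table were matched to GENCODE M21, and make up 9 of its 55421 genes. All 9 are annotated as protein coding and lie on autosomes, so none is inside a deleted segment of the X chromosome. All 9 were among the 18316 genes tested, which had 10 or more counts in 2 or more libraries.

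The study asked how cells respond to the loss of an X chromosome or of a large X segment, using bulk RNA-seq of female mouse embryonic stem cells (mESCs) that carry a 129/Sv genome (Mus) and a Cast/Ei genome (Cast). XX wild type, XX Rnf12+/-, XCastOMus and XMusOCast cells had 2 libraries each. XX Rnf12+/- cells lack Rnf12 (Rlim), an X-linked ubiquitin ligase gene, on the Mus X, and served as the reference of the study. XCastOMus cells kept the Cast X alone, and XMusOCast cells kept the Mus X alone, with its Rnf12 deletion. The study's methods describe both as clones that lost an X during targeting. The other 22 libraries were of 13 Rnf12+/- lines with a heterozygous deletion of an X segment, named A to F, H to K, AB, C-G and I-TEL. These lines kept a neomycin cassette at the deletion. Lines A, B, AB and C-G were 1 clone each and the other 9 lines 2 clones each. The study's methods derive lines J and I-TEL from a second Rnf12+/- founder and the other lines from the first. All cells grew on mouse embryonic fibroblast feeders in medium with serum and leukaemia inhibitory factor (LIF), and feeders were depleted by pre-plating before RNA was extracted. The labels do not say whether the pairs of XX libraries came from separate cultures, so the spread between them may be technical. The p-values rest on a spread estimated over all 30 libraries fitted together, not on that of the XX libraries alone.

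Naive mESCs are held in an undifferentiated state by a network of transcription factors around Pou5f1 and Sox2. LIF acts through Stat3 on several of these factors, Klf4 and Tfcp2l1 among them. Most of the 9 factors are lost early when cells move towards the formative and primed states, in which Otx2, Dnmt3a and Dnmt3b are gained. Female mESCs with 2 active X chromosomes are known for a stronger naive programme than XO or XY cells.

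Nanog, a homeobox factor at the centre of the network, lies on chromosome 6 from 122707489 to 122714633 in GRCm38 (mm10), and Esrrb, an orphan nuclear receptor that can stand in for Nanog, on chromosome 12 from 86361117 to 86521628. The Krüppel-like zinc finger factors Klf2, Klf4 and Klf5 lie on chromosome 8 from 72319033 to 72321656, chromosome 4 from 55527143 to 55532466 and chromosome 14 from 99298691 to 99315036. Chromosome 1 holds Prdm14 from 13113457 to 13127163, Tfcp2l1 from 118627945 to 118685168 and Nr5a2 from 136842571 to 136960448. Prdm14 is a PR domain protein that represses DNA methyltransferase genes, Tfcp2l1 a CP2 family factor downstream of LIF, and Nr5a2 a nuclear receptor that binds near Pou5f1. Tbx3, a T-box factor, lies on chromosome 5 from 119670669 to 119684724.

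The promoter of Nanog is shown because Nanog had the highest level of the 9 and because its proximal promoter is known for a composite element read by Pou5f1 and Sox2. The 250 bases before its start site (RefSeq, GRCm38.p6, chr6:122707239-122707488, plus strand) read as follows, with capitals for the Sox motif ACAATG.
Nanog promoter: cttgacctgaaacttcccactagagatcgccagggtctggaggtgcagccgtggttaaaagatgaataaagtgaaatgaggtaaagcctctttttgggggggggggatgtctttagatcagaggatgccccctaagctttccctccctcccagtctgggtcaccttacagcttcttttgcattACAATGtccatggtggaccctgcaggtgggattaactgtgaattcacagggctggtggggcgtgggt
The motif begins 67 bases before the start site, and 12.6% of 32851 promoters hold it on either strand in the window from 250 bases before to 50 bases after the start. RefSeq promoters were matched for 6 of the 9 factors, in 9 windows. In another Nanog window, with a later start site, the same motif begins 143 bases before the start. Esrrb had the same motif on the minus strand, after its start site. ATTTGCAT (the octamer of Pou5f1), TCAAGGTCA (Esrrb and Nr5a2), TTCCNGGAA (Stat3) and GGGTGTGG (Klf factors) were in none of the 9 windows, against 1.74%, 0.423%, 1.15% and 3.56% of all promoters. The search was for exact letters. In the sequence shown, ttttgcat, which differs from the octamer only in its first base, lies just before the Sox motif. A match or its absence describes these letters only.

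The libraries fell into 3 library series. The XX and deletion E libraries had 20375194 to 21181405 counts and the 20 libraries of the other 12 deletion lines 8816184 to 10680026, all from paired reads of 50 bases. The 4 XO libraries had 14998265 to 16494893 counts from single reads of 50 bases. The study's methods also name another sequencer model for them than for the other libraries. An effect of losing an X and one of library series, read type or sequencer cannot be told apart. Rlim, the targeted gene, had TPM of 211 and 193 in XX wild type, 77.6 and 79.7 in XX Rnf12+/-, 71.2 and 77.8 in XCastOMus and 3.53 in both XMusOCast libraries. TPM, a measure of transcript abundance per exon length with the same sum in every library, were computed from the counts and the union of exons of each gene. The stem cell markers Pou5f1, Sox2, Sall4 and Zfp42 summed to 3028 to 3965 TPM. Of 12 feeder fibroblast markers, 8 to 12 were above 1 TPM, summing to 185 to 916 TPM in the XX and deletion E libraries, 173 to 398 in the XO libraries and 119 to 449 in the 12 other lines. Col1a1 lay between 16.2 and 182 TPM and Lum, a defining fibroblast gene, between 0.134 and 11.98. Markers of primitive endoderm summed to 67.3 to 139 TPM, of mesoderm and primitive streak to 13.6 to 57.2 and of trophoblast to 22.9 to 86.6. In bulk RNA, fewer cells that make a factor and less of it per cell cannot be told apart.

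All 9 factors were detected in each of the 30 libraries. In XX Rnf12+/- the mean TPM fell in the order Nanog 932 ± 8.55 (SD, n = 2 here and below), Esrrb 796 ± 20.6, Klf2 664 ± 111, Klf4 607 ± 91.8, Klf5 326 ± 31.9, Tfcp2l1 255 ± 12.05, Tbx3 216 ± 8.90, Prdm14 102 ± 4.53 and Nr5a2 28.3 ± 1.42. Neighbours in this order did not overlap between the 2 libraries, except Klf2 and Klf4. Tfcp2l1 was above Tbx3 in 30 of 30 libraries, and Esrrb above Klf2 in 29. Nanog was above Esrrb in only 13 of 30, since Esrrb was the higher in all XO libraries and in most libraries of the 12 deletion lines. With the longest annotated transcript as the length, Esrrb (858 TPM) stood above Nanog (724 TPM) in XX Rnf12+/- as well. Processed pseudogenes of Nanog are annotated, so reads shared with them make its level less certain.

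The spread over libraries differed among the factors. Across all 30 libraries the highest TPM was 6.34 times the lowest for Tfcp2l1, 6.08 times for Tbx3 and 5.68 times for Prdm14, but 2.03 times for Esrrb. Within the 20 libraries of 12 deletion lines, Nanog varied least (1.43 times, 613 to 875 TPM, median 764.4), and Tbx3 most (5.25 times, 39.9 to 209 TPM, median 141).

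**Figure D1:**
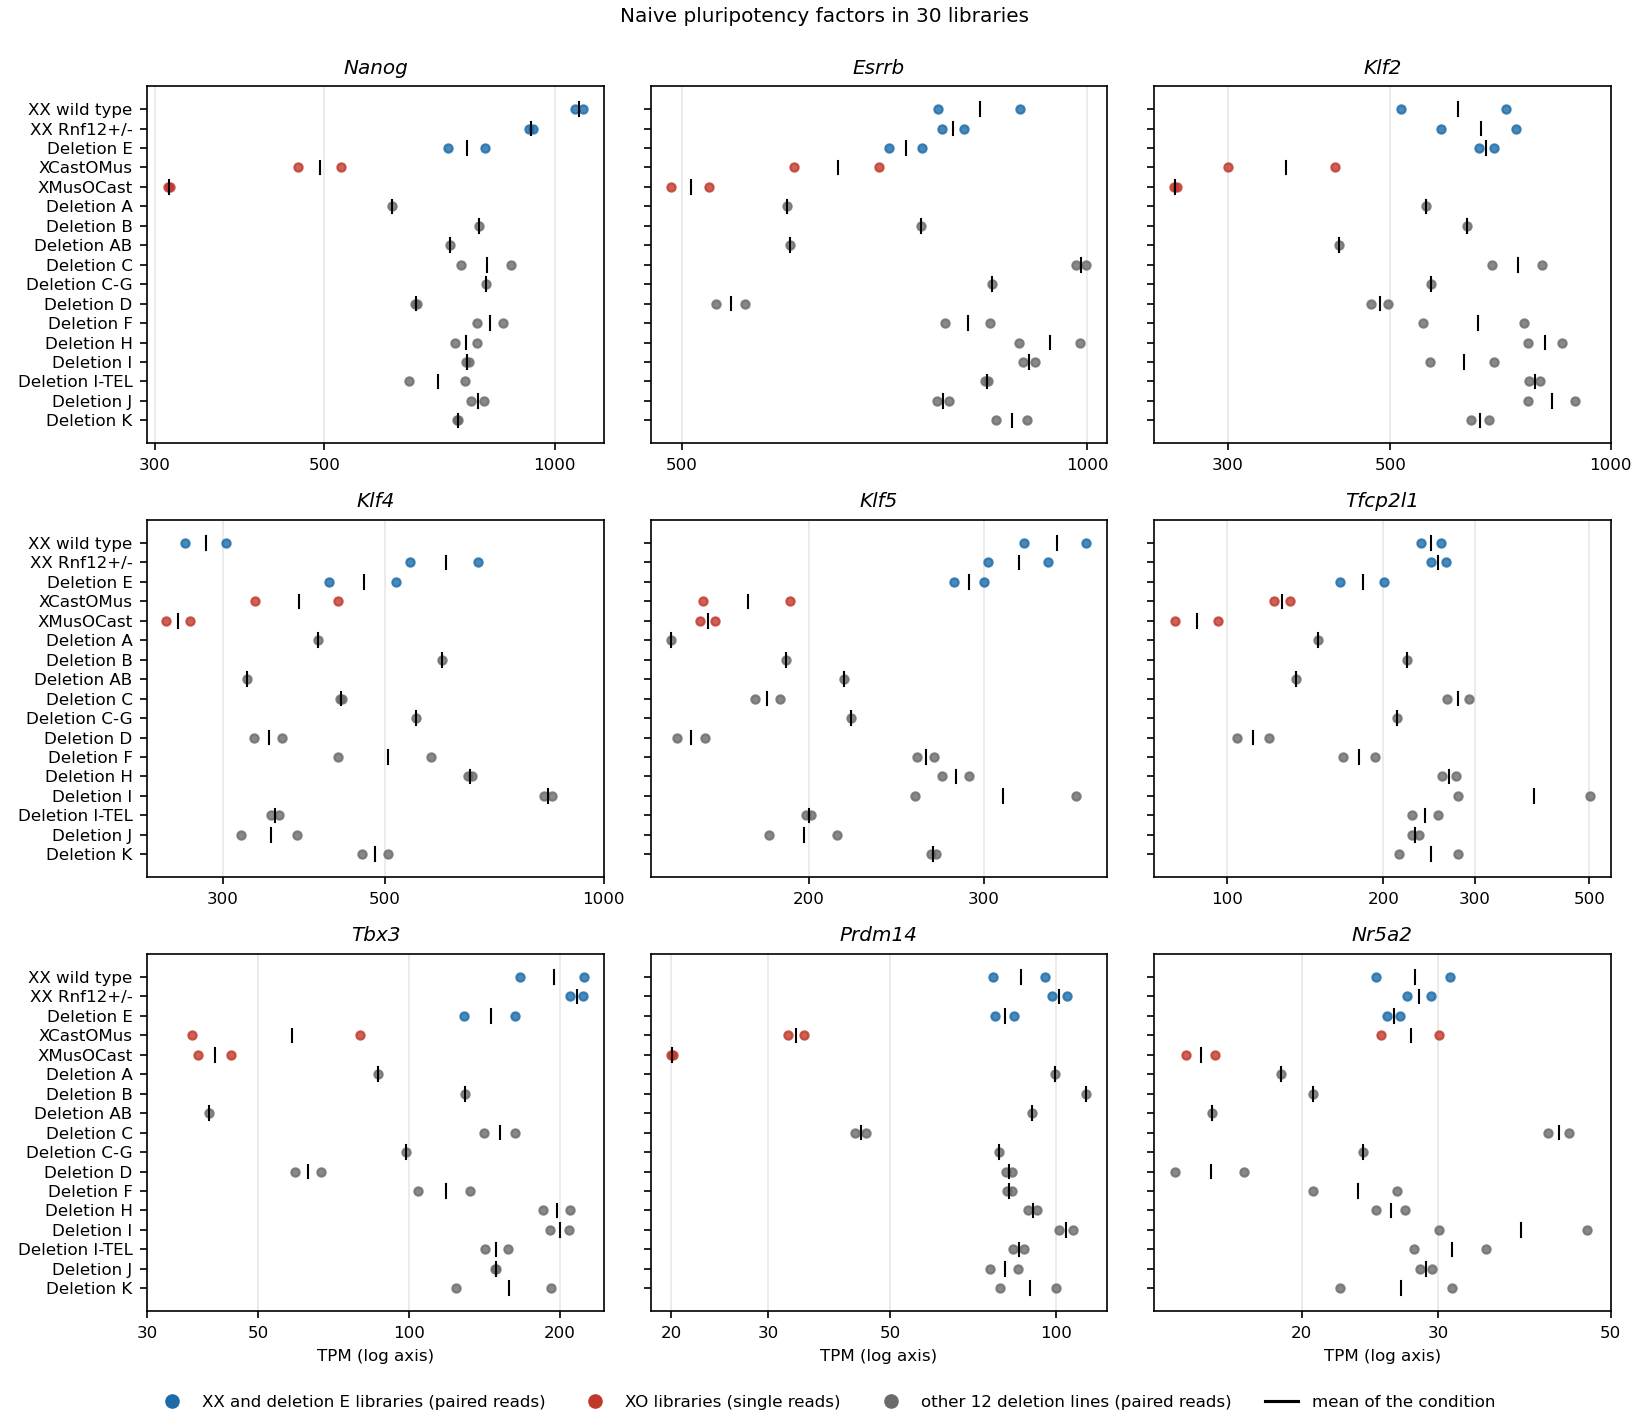
TPM of each factor (log axis, a panel per gene) in every library, by condition, with a bar at the mean. Colours mark the XX and deletion E libraries, the XO libraries and the other 12 deletion lines; the XMusOCast libraries are the lowest or among the lowest in all panels, and Nanog stays between 613 and 875 TPM in the grey points.

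The factors were lower in the XO libraries than in XX Rnf12+/-. EdgeR's quasi-likelihood test with Benjamini-Hochberg adjustment over all genes tested, at a threshold of 0.05, called 7 of the 9 lower in XCastOMus and all 9 lower in XMusOCast, and none higher. Of all genes tested 34.8% were called in XCastOMus (18.6% lower) and 45.4% in XMusOCast (24.4% lower). The median log2 fold change of the 9 was -0.81 in XCastOMus and -1.25 in XMusOCast, against -0.04 and -0.07 for all genes tested. Both comparisons share the XX Rnf12+/- libraries. Feeder markers summed to 193 and 398 TPM in XCastOMus, 173 and 275 in XMusOCast, and 916 and 194 in XX Rnf12+/-. Against XX Rnf12+/- 6 of 12 markers were above and 6 below in XCastOMus (1 called higher, median log2 -0.16). In XMusOCast 2 were above and 10 below (2 called lower, median log2 -0.60). Their part in the results was not tested.

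Tbx3 and Prdm14 moved most. Tbx3 had 210 and 222 TPM in XX Rnf12+/-, 79.98 and 36.8 in XCastOMus, and 37.9 and 44.1 in XMusOCast. Its log2 fold change was -1.79 (SE 0.25, edgeR adjusted p = 1.74e-05) in XCastOMus and -2.26 (SE 0.26, adjusted p = 8.06e-07) in XMusOCast, and the XCastOMus clones differed from each other. Prdm14 had 98.4 and 104.8 TPM in XX Rnf12+/-, 32.7 and 34.9 in XCastOMus, and 20.2 and 20.0 in XMusOCast. Here the clones of each XO line lay close together and the 3 groups stood apart, with log2 fold changes of -1.49 (SE 0.11, edgeR adjusted p = 4.43e-09) and -2.20 (SE 0.12, adjusted p = 3.03e-11).

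Nanog had 926 and 938 TPM in XX Rnf12+/-, 526 and 461 in XCastOMus, and 312 and 314 in XMusOCast. The levels were 1.77-fold lower in XCastOMus (log2 -0.82, SE 0.096) and 2.71-fold lower in XMusOCast (log2 -1.44, SE 0.097). Tfcp2l1 had 247 and 264 TPM in XX Rnf12+/-, 123 and 132 in XCastOMus, and 79.1 and 95.9 in XMusOCast. It was 1.87-fold and 2.66-fold lower in the fit, again in the order XX, XCastOMus, XMusOCast without overlap.

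Among the Krüppel-like factors, Klf2 had 742 and 586 TPM in XX Rnf12+/-, 299 and 419 in XCastOMus, and 255 and 253 in XMusOCast (log2 -0.79 and -1.25). Klf5 had 303 and 348, then 191 and 156, then 155 and 161 (log2 -0.81 and -0.91), so the XO lines overlapped. Klf4 had 542 and 672 TPM in XX Rnf12+/-, 432 and 332 in XCastOMus, and 251 and 270.4 in XMusOCast (log2 -0.57 and -1.08). The call for Klf4 in XCastOMus was lost without XCastOMus replicate 2 (log2 -0.39, adjusted p = 0.0686 in edgeR) or without XX Rnf12+/- replicate 2 (log2 -0.41, adjusted p = 0.0631). With a fit on the compared libraries alone, the XCastOMus calls of Klf2 (adjusted p = 0.0616 in edgeR) and Klf4 (adjusted p = 0.0908) were lost, while all 9 calls remained in XMusOCast.

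The orphan receptors moved least. Esrrb had 781 and 810.1 TPM in XX Rnf12+/-, 701 and 605 in XCastOMus, and 491 and 524 in XMusOCast. Its log2 fold change was -0.19 in XCastOMus, which was not called (adjusted p = 0.0883 in edgeR) but passed without XCastOMus replicate 1 (-0.31), and -0.51 in XMusOCast. Nr5a2 had 29.3 and 27.3 TPM in XX Rnf12+/-, 25.3 and 30.01 in XCastOMus, and 14.2 and 15.4 in XMusOCast. It was called in XMusOCast alone (log2 -0.80, SE 0.19), and XCastOMus overlapped the reference (log2 0.06, SE 0.19).

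The XO lines could be compared within their own library series and read type. Of the 9 factors 5 were called lower in XMusOCast than in XCastOMus and none higher, against 5.9% of all genes tested called and 2.96% called lower. They were Nanog (log2 -0.62, SE 0.096, edgeR adjusted p = 0.00129), Prdm14 (-0.71, SE 0.12, adjusted p = 0.00186), Nr5a2 (-0.86, SE 0.19), Klf4 (-0.51, SE 0.14) and Esrrb (-0.32, SE 0.083). Klf2, Tfcp2l1, Tbx3 and Klf5 had log2 values of -0.46, -0.51, -0.47 and -0.10 and were not called. The clones of the lines overlapped for Klf5 and Tbx3 and not for the other factors. How often they overlap over all genes was not worked out. Nanog and Prdm14 kept their calls with any of the 4 XO libraries left out. Esrrb and Klf4 lost theirs without XCastOMus replicate 1 (log2 -0.20 and -0.29) or either XMusOCast replicate, and Nr5a2 without XCastOMus replicate 2 or either XMusOCast replicate. A fit on the 4 XO libraries alone called 0 of 9. The XO lines also differ in Rlim, as given above.

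**Figure D2:**
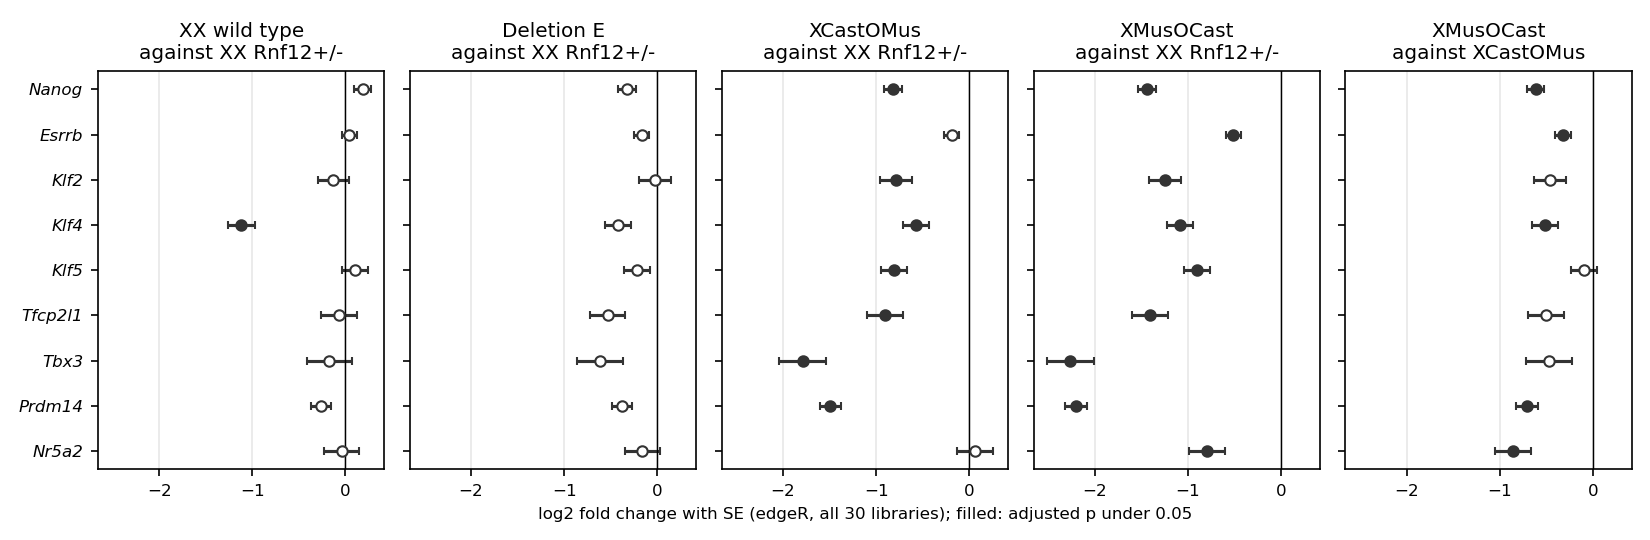
Log2 fold change of each factor with its SE (bars) in 5 comparisons, with filled points where edgeR's adjusted p was under 0.05. All points of XMusOCast against XX Rnf12+/- are filled and below 0, and Klf4 is the filled point of XX wild type against XX Rnf12+/-, at -1.12.

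XX wild type and XX Rnf12+/- differed in Klf4 alone among the 9, against 2.75% of all genes tested. Klf4 had 303 and 266 TPM in XX wild type and 542 and 672 in XX Rnf12+/-, a 2.17-fold difference (log2 -1.12, SE 0.14, adjusted p = 0.000267 in edgeR). The wild type level of Klf4 was within the 251 to 432 TPM of the XO libraries, and no overlap with XX Rnf12+/- was seen. The call held without any of the 4 libraries, but not in a fit on these 4 libraries alone (adjusted p = 0.312 in edgeR). The log2 fold changes of the others lay between -0.26 (Prdm14) and 0.18 (Nanog, 1089 and 1064 TPM in wild type). Summed feeder markers were high in replicate 1 and low in replicate 2 of both groups (679 and 185 TPM in wild type, 916 and 194 in Rnf12+/-). Lum went the other way (0.134 and 1.37 TPM in wild type, 0.534 and 3.6 in Rnf12+/-). Between the groups 12 of 12 markers were lower in wild type (0 called, median log2 -0.32). Their part in the difference was not tested.

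Deletion E was the deletion line of the same library series as XX Rnf12+/-. EdgeR called 0 of the 9 factors, against 0.59% of all genes tested. With autosomal genes alone in the fit, where all 9 lie, the share was 0.0171%. At an unadjusted p under 0.05 there were 5, and DESeq2 called 0, against 1.2% of genes with an adjusted p. The share of all genes under the unadjusted threshold was not worked out, here or in the comparisons below. Nor was DESeq2's share of all genes in each single line below. All 9 log2 fold changes were below 0, from -0.62 (Tbx3, 163 and 128 TPM) to -0.03 (Klf2, 661 and 692 TPM). Their median was -0.33, against -0.0014 for all genes tested. Nanog had 812 and 726 TPM, below both reference libraries. Feeder markers summed to 602 and 899 TPM in the E clones, of which Acta2 alone had 330 and 489. Lum had only 0.203 and 0.201 TPM. Against XX Rnf12+/- 7 of 12 markers were above and 5 below (0 called, median log2 0.09). Their part in these values was not tested.

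The other 12 deletion lines shared a library series, so each was set against the mean of the other 11. Over the 108 pairs of a factor and a line, 29 were called, 15 higher and 14 lower. Over all genes tested, 8.48% of pairs of a gene and a line were called. The comparisons share libraries. Lines D and I held 7 calls each, in opposite directions. Lines with 1 clone are assumed in the fit to vary as the other lines do.

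**Figure D3:**
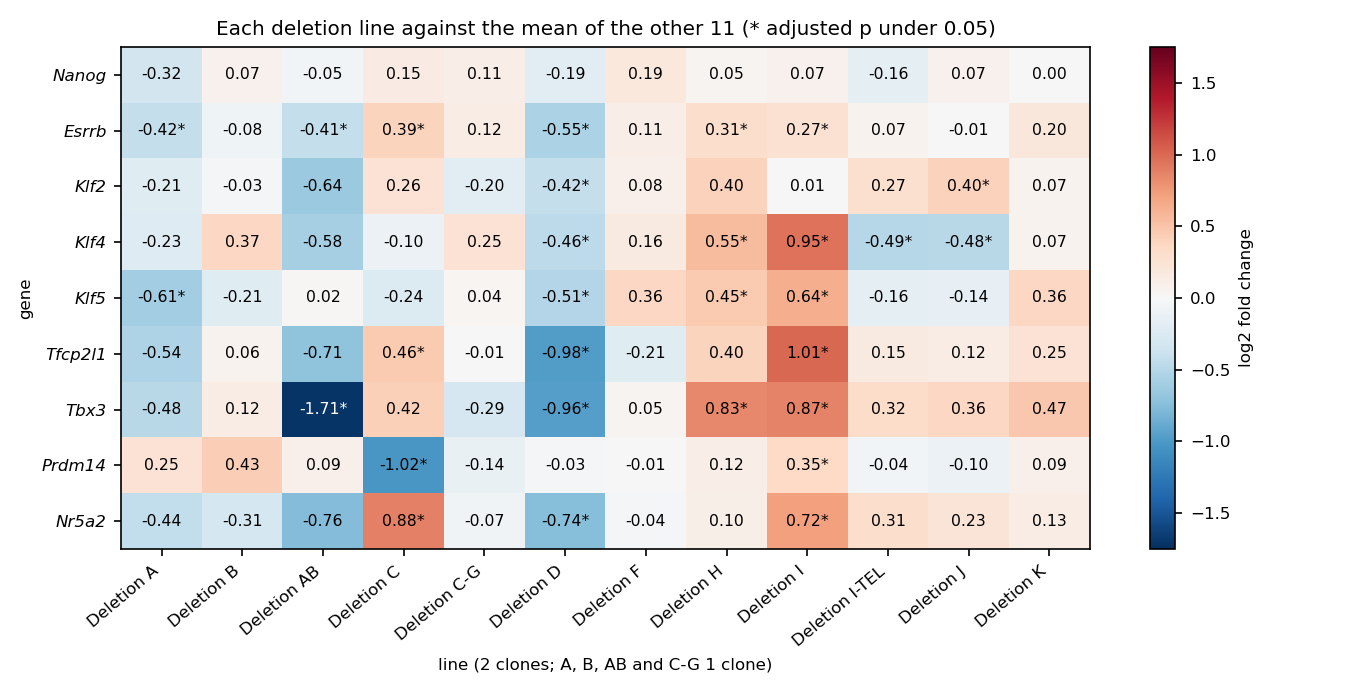
Log2 fold change of each factor (rows) in each of 12 deletion lines (columns) against the mean of the other 11, red for higher and blue for lower, with a star where edgeR's adjusted p was under 0.05. Deletion D has 7 blue starred cells, deletion I 7 red ones, and the Nanog row has none.

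In deletion D 7 factors were lower than in the other lines, and none higher, against 11.2% of all genes tested (6.19% lower). Tfcp2l1 had 104 and 120.1 TPM in the D clones and 135 to 501 TPM in the 18 other libraries. It was 1.97-fold lower (log2 -0.98, SE 0.16, adjusted p = 0.000981 in edgeR), without overlap. Esrrb had 530.1 and 557 TPM, below every other library of these lines (log2 -0.55, SE 0.066). Tbx3 had 66.8 and 59.1 TPM, with only the AB clone lower (log2 -0.96, SE 0.20). Nr5a2 (-0.74), Klf5 (-0.51), Klf4 (-0.46) and Klf2 (-0.42) were also lower. Prdm14 was not called (81.3 and 83.5 TPM, log2 -0.03), nor was Nanog (661 and 656 TPM, log2 -0.19). Esrrb and Tfcp2l1 kept their calls with either clone left out, Nr5a2 lost its call without clone 2, and Klf2, Klf4, Klf5 and Tbx3 without either clone. Klf2 was also not called with the replicate number as a block (adjusted p = 0.0555 in edgeR). Feeder markers summed to 405 and 397 TPM in the D clones, near the top of the 119 to 449 of these lines, with 11 of 12 above the other lines (2 called, median log2 0.86), and their part was not tested.

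In deletion I 7 factors were higher than in the other lines, against 7.57% of all genes tested (4.9% higher). Klf4 had 849 and 827 TPM, above all 28 other libraries of the study, and was 1.93-fold higher than in the other lines (log2 0.95, SE 0.097, adjusted p = 5.86e-05 in edgeR). Tbx3 had 192 and 209 TPM (log2 0.87, SE 0.17), among the highest of the series. The clones differed in Tfcp2l1 (501 and 279 TPM), Klf5 (371 and 256 TPM) and Nr5a2 (46.6 and 30.02 TPM). Without clone 1 the log2 values of these 3 fell from 1.01 to 0.47, from 0.64 to 0.30 and from 0.72 to 0.32, and none was called. Tbx3, Esrrb (log2 0.27) and Prdm14 (log2 0.35) also lost their calls without clone 1, Prdm14 without either clone, while Klf4 kept its call. Nanog (773 and 765.1 TPM) and Klf2 (694 and 567 TPM) were not called. Feeder markers summed to 182 and 119 TPM in the I clones, with 12 of 12 below the other lines (0 called, median log2 -0.59), and their part was not tested.

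In deletion C the factors moved in both directions, with 4 called against 31% of all genes tested, so that the count was near the background. Prdm14 had 45.3 and 43.2 TPM, while the 18 other libraries had 76.0 to 114 TPM. It was 2.02-fold lower (log2 -1.02, SE 0.092, adjusted p = 1.51e-07 in edgeR) and stood clear of all other XX and deletion libraries. Nr5a2 had 41.5 and 44.2 TPM (log2 0.88, SE 0.13) and was exceeded by deletion I clone 1 alone. Esrrb had 981 and 999 TPM (log2 0.39, SE 0.060), and Tfcp2l1 was higher by log2 0.46. The Tfcp2l1 call was lost without either clone and the other 3 were not.

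Deletions A and AB, with 1 clone each, had 2 lower factors each by edgeR. DESeq2 called 3 in A and 6 in AB, and 5 and 6 had an unadjusted p under 0.05 in edgeR. In A they were Esrrb (599 TPM, log2 -0.42) and Klf5 (145 TPM, the lowest of all 30 libraries, log2 -0.61, SE 0.15), against 4.97% of all genes tested. In AB they were Esrrb (602 TPM, log2 -0.41) and Tbx3, against 1.99%. Tbx3 had 39.9 TPM in AB and 59.1 to 209 TPM in the other 19 libraries, a 3.27-fold difference (log2 -1.71, SE 0.30, adjusted p = 0.00453 in edgeR) at the level of the XO libraries. Deletion H had 4 higher factors, against 4.8% of all genes tested. They were Tbx3 (185 and 209 TPM, log2 0.83), Klf4 (650.3 and 658 TPM, log2 0.55), Klf5 (log2 0.45) and Esrrb (log2 0.31). All 4 lost their calls without clone 2, and all but Esrrb without clone 1. Feeder markers summed to 303 TPM in A, 284 in AB, and 158 and 145 in H. In H 12 of 12 were below the other lines (median log2 -0.88, 0 called), and their part in these results was not tested.

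In the lines of the second founder, Klf4 was the factor called in both. It had 318 and 379 TPM in deletion J (log2 -0.48, SE 0.11) and 359 and 349 in I-TEL (log2 -0.49, SE 0.11), where 18.8% and 14.9% of all genes tested were called. These levels were above the 303 and 266 TPM of XX wild type. The calls were lost without J clone 1 and without I-TEL clone 2. Klf2 was higher in J (771 and 894 TPM, log2 0.40), a call that was lost without either clone. J thus had 2 calls and I-TEL 1. Feeder markers were higher in J, where 12 of 12 were above the other lines (5 called, median log2 1.16, sums of 449 and 330.2 TPM). In I-TEL 11 of 12 were above (3 called, median log2 0.84, sums of 258 and 420.4 TPM), and their part in the Klf4 and Klf2 values was not tested.

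In 4 lines edgeR called 0 of the 9. The unadjusted p was under 0.05 for 2 factors in B, 0 in C-G, 2 in F and 3 in K, and DESeq2 called 1, 0, 1 and 1. Of all genes tested 0.328%, 1.17%, 3.89% and 1.26% were called in these lines. In K the largest log2 fold change was 0.47, for Tbx3.

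Nanog was the factor without a call in any line against the others. Its log2 fold changes lay between -0.32 (A) and 0.19 (F), its smallest adjusted p was 0.0759 in edgeR, 4 of 12 lines had an unadjusted p under 0.05 and DESeq2 called 1. Esrrb was called in 6 lines, Klf4 in 5, Klf5 and Tbx3 in 4, Tfcp2l1 and Nr5a2 in 3, and Klf2 and Prdm14 in 2.

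Against XX Rnf12+/-, which was of another library series, 43 of the 108 pairs were called, 41 lower and 2 higher, against 15.5% of pairs over all genes tested. An effect that the lines share and the library series cannot be told apart here. Klf5 was called lower in 8 of 12 lines, Nanog in 7, Klf4 in 6, and Tbx3 and Prdm14 in 5 each. Nanog, Klf5 and Tbx3 had log2 fold changes below 0 in 12 of 12 lines, with medians of -0.31, -0.72 and -0.73. The higher calls were Esrrb (0.27) and Nr5a2 (0.56) in deletion C. Deletion D had 9 factors lower, AB 8 and A 6, while deletion I had 0 by edgeR (4 at an unadjusted p under 0.05, 3 by DESeq2). The share of all genes called in each line alone, or with a library left out, was not worked out for this comparison. Such counts lack their background. The count of 43 fell to 28 without XX Rnf12+/- replicate 1.

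The reads assigned to an allele showed where stretches of chromosome differ among the lines. The Mus share of Esrrb was 63.3% to 69.7% in XX Rnf12+/- and the deletion lines of the first founder and 64.4% to 66.2% in the XO libraries. In XX wild type, J and I-TEL it was 23.6% to 26.4%. The expressed genes within 10 Mb had 67.7% to 70.8% in the first of these groups and 27.9% to 30.3% in the last, so the gene moved with its surroundings. Their median log2 fold change was 0.34 in XX wild type against XX Rnf12+/-. Against the mean of the other 11 lines it was 0.31 in J and 0.32 in I-TEL. Esrrb itself had 0.04, -0.01 and 0.07 in the same comparisons. For Klf2 the Mus share was 65.9% to 74.5% in J and I-TEL, with neighbours at 63.0% to 64.7%. Against the other 11 lines, the neighbours' median log2 was 0.42 in J and 0.39 in I-TEL, close to the 0.40 and 0.27 of Klf2 itself.

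Clone 1 of deletion I stood apart in the same way on chromosomes 1 and 14. There the Mus share was 72.1% for Tfcp2l1, 71.0% for Nr5a2 and 66.9% for Klf5, with neighbours at 66.9%, 67.4% and 64.9%. Over the other 29 libraries neighbours of Tfcp2l1 did not exceed 50.7%. The neighbours' median log2 fold change in deletion I, both clones together, was 0.34 for Tfcp2l1, 0.39 for Nr5a2, 0.31 for Klf5 and 0.35 for Prdm14, beside 1.01, 0.72, 0.64 and 0.35 for the factors. For Klf4, whose neighbours had 0.05, no such shift was seen. Clone 2 of deletion F had low shares on chromosomes 8 and 14, with 41.3% for Klf2 and 34.8% for Klf5 and neighbours at 30.3% and 34.4%. A fit with clone 1 of I and clone 2 of F left out together was also run, a setting chosen after the data were seen. Its share of pairs called over all genes was not worked out, so no count is given.

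Prdm14 gave mostly Cast reads. From 109 to 588 allelic reads per library, 5.39% to 35.4% were Mus reads (median 12.14%), although its neighbours lay between 50.2% and 68.2%. Both ends of the Mus range came from XO libraries, with 9.61% and 5.39% in XCastOMus and 21.6% and 35.4% in XMusOCast. The 26 paired-read libraries had 8.20% to 25.3%. In deletion C, where Prdm14 was low, the shares were 15.6% and 8.20% (95% Wilson intervals 9.97 to 23.6 and 4.51 to 14.4, for counting error only). They were within the range of all libraries, and the neighbours' median log2 fold change was 0.24 beside the -1.02 of the gene. The Mus share of Nanog followed the library series, with 62.9% to 72.2% in the XX and deletion E libraries, 48.8% to 62.9% in the 12 other deletion lines and 48.4% to 51.2% in the XO libraries. The first of these ranges did not overlap the others before rounding, and neighbours were near even throughout (51.0% to 54.9%). Library series and line cannot be told apart between these groups.

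**Figure D4:**
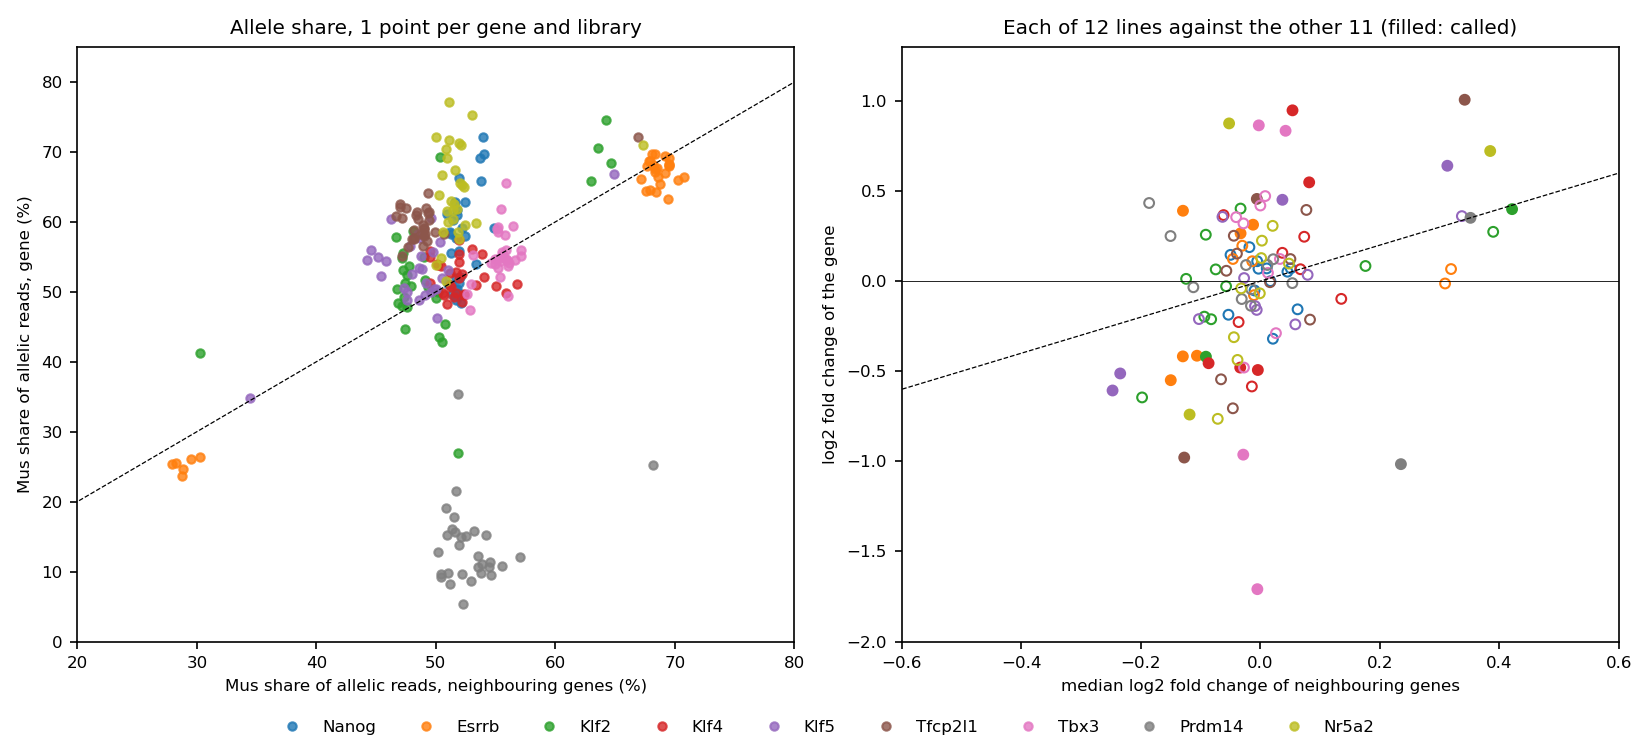
Left, the Mus share of allelic reads of each factor (%) against that of the expressed genes within 10 Mb, 1 point per gene and library. Right, log2 fold change of each factor in 12 deletion lines against the median of its neighbours, filled where called; dashed lines mark equality. On the left the Esrrb points form clusters near 25% and 67% along the line and Prdm14 lies below it, and on the right calls such as Tbx3 in AB (-1.71) lie far from the line.

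Over the means of the 12 lines in this library series, the factors varied together to different degrees. Pearson's r of log2 CPM was above 0 for 30 of 36 pairs (median 0.578, n = 12 line means, which share library series but not clones). Values of r over all pairs of genes were not worked out. Esrrb and Tfcp2l1 had 0.903, Tfcp2l1 and Nr5a2 0.898, Tfcp2l1 and Tbx3 0.892, and Klf2 and Tbx3 0.886. Tfcp2l1 and Nr5a2 both lie on chromosome 1, where clone 1 of deletion I stood apart, and its part in their r was not tested. Prdm14 was the exception, with r below 0 to 6 of the 8 others, down to -0.463 with Nr5a2. Among 10144 protein-coding genes, the pattern most like that of Nanog was that of 4930503L19Rik (0.915) and then E2f8 (0.843), and like that of Prdm14 that of Zfp217 (0.902) and Gls2 (0.901). For the other members the nearest were Fbxo30 and Slc25a44 (Esrrb, both 0.958), Slc23a2 (Klf2, 0.933), Sec24c (Klf4, 0.945), Mcm4 (Klf5, 0.945), Aff1 (Tfcp2l1, 0.948), Nptx1 (Tbx3, 0.939) and Qk (Nr5a2, 0.961). The highest of so many values is high by selection.

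In a list of 18 other pluripotency genes calls went in both directions. In XCastOMus 6 were called higher and 2 lower than in XX Rnf12+/-, and in XMusOCast 6 higher and 3 lower. With 34.8% and 45.4% of all genes tested called, these counts are near the background. Tcl1, a cofactor of Akt, and Sox2 were lower in both (log2 -1.14 and -1.07 in XCastOMus, -1.71 and -0.82 in XMusOCast). The LIF receptor gene Lifr (1.00 and 1.01), Socs3, a feedback inhibitor of Stat3 (1.42 and 1.15), and Tcf7l1, a repressor of the naive network (0.73 and 0.87), were higher. Between the XO lines 1 gene was called, Zfp42 (lower in XMusOCast, log2 -0.49), against 5.9% of all genes tested. In XX wild type Gbx2 was lower (log2 -1.46), and in deletion E 0 of 18 were called. In deletion D 2 were higher, Dppa3 (0.63) and Dppa4 (0.34), and 3 lower, Lifr (-0.61), Stat3 (-0.44) and Ctnnb1 (-0.23). In deletion I 2 were higher, Gbx2 (1.32) and Tdh (0.54), and 3 lower, with Dppa3 at -0.91. In deletion C 6 were higher and 3 lower, with Socs3 at -1.71 and Gbx2 at -1.50. The shares of all genes tested were 11.2% in D, 7.57% in I and 31% in C. In the other lines I-TEL had 2 higher and 3 lower (against 14.9%), J 2 and 2 (against 18.8%), A 1 and 1 (against 4.97%), F 1 and 0 (against 3.89%) and H 2 and 0 (against 4.8%), while edgeR called 0 in B, AB, C-G and K.

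Among 11 genes of the formative and primed states, 4 were higher in XCastOMus and 7 in XMusOCast, and none lower. The shares of all genes tested that were called were 34.8% in XCastOMus (18.6% lower) and 45.4% in XMusOCast (24.4% lower). Only the remainder of each share was called higher. Dnmt3b, a de novo DNA methyltransferase that Prdm14 represses, had 122 to 130 TPM in XX Rnf12+/- and means of 398 ± 45.6 and 609 ± 0.05 (SD, n = 2 each) in XCastOMus and XMusOCast. Its log2 fold changes were 1.76 (SE 0.27) and 2.41 (SE 0.28). Dnmt3a was higher by log2 1.37 and 2.37, Lef1, a Wnt effector, by 1.31 in XCastOMus, and Grhl2, an epithelial factor, by 1.78 in XMusOCast. Dnmt3a (0.99) and Pou3f1 (1.16) were also higher in XMusOCast than in XCastOMus.

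In deletion D 7 of the 11 were higher than in the other lines and none lower, Pou3f1 (1.05), Sall2 (1.00) and Zic2 (0.92) among them. Of all genes tested 11.2% were called in D. In AB 5 were higher, against 1.99% of all genes tested. In deletion I 2 were lower, Dnmt3a (-0.90) and Dnmt3b (-0.84), against 7.57%. In deletion C 3 were lower, with Dnmt3b at -0.92, against 31% of all genes called in either direction. In I-TEL 3 were lower (against 14.9%), in J 2 lower and 1 higher (against 18.8%) and in H 1 higher (against 4.8%), while edgeR called 0 in A, B, C-G, F and K. XX wild type had 1 lower (Sox4, -0.72), and deletion E 0 of 11, with a median log2 of 0.58 against -0.0014 for all genes tested. These counts share libraries with those of the 9 factors, and their relation to them was not tested.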

How the data were processed

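Polyadenylated RNA of mESCs was sequenced with a stranded kit in 30 libraries of 17 conditions. The authors trimmed the reads (Trim Galore 0.6.7), aligned them to mm10 with SNPs between the parental genomes masked (HISAT2 2.2.1), assigned reads to the Mus or Cast allele, merged the alignments (SAMtools 1.10) and deposited raw counts per gene for all reads and for each allele. The study's methods name featureCounts with the Ensembl 98 annotation for counting and the submitters' processing notes name HTSeq 0.12.4, and how reads that map to several places were treated is not given in the sources used here. Gene symbols, positions and exon lengths were taken from GENCODE M21, which matched 55240 of the 55421 identifiers; the 181 without a match made up 0.00401% of a library's counts or less.

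Conditions were taken from the labels. EdgeR 4.0.16 (R 4.3.3) fitted the 30 libraries with a term per condition, TMM factors from autosomal genes and the quasi-likelihood test, adjusted by the Benjamini-Hochberg method over the 18316 genes with 10 counts or more in 2 libraries or more, at a threshold of 0.05. SE were derived from the fold change and its F statistic. The script was tested on simulated data. CPM used a prior count of 2 on the log2 scale. Allele shares required 20 allelic reads and have 95% Wilson intervals for counting error. Neighbours were genes within 10 Mb with a mean TPM over 5 in XX Rnf12+/-. Library totals were 8816184 to 21181405 counts, and the lowest count of a factor in a library was 235, for Prdm14. DESeq2 1.42.0, other size factors, filters, sets of libraries, a replicate block and leaving out single libraries were tried as alternatives. 

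All 9 factors were tested in every comparison, and those the text turns on are given with their values. From each other list up to 3 called genes per direction with the largest log2 fold change were named, and for each factor the genes with the highest correlation over the 12 line means. The factors, lists and tests were chosen with earlier results of these data known.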

Additional observations from a re-analysis of the deposited data

Results flagged for a closer look

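The XO lines differed from each other in their effect against the same XX Rnf12+/- reference for 5 of the 9 factors, by edgeR's test of XMusOCast against XCastOMus. The log2 difference was -0.62 for Nanog, -0.32 for Esrrb, -0.51 for Klf4, -0.71 for Prdm14 and -0.86 for Nr5a2. A fit on the 4 XO libraries alone called none of them. The direct test in the fit of all 30 libraries cancels the shared reference and lies within 1 library series. Its spread was estimated over all libraries. Nanog and Prdm14 were called with any of the XO libraries left out, and the other 3 were not.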

How the results depend on the processing

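Counts of called factors moved by over 1.5 times under few alternatives. Without a filter on low counts, edgeR called 8 factors rather than 5 between the XO lines, 4 rather than 0 in deletion E, and 49 pairs rather than 29 among the 12 lines, with 4.49%, 1.92% and 5.89% of all genes or pairs called. With only the compared conditions in the fit, 0 factors rather than 1 were called in XX wild type, 0 rather than 5 between the XO lines, and 18 pairs rather than 43 for the 12 lines against XX Rnf12+/- (0.0059%, 0.194% and 3.43% over all genes); such fits have fewer libraries to estimate the spread. With libraries left out in turn, the calls ranged from 1 to 1 in XX wild type, 6 to 8 in XCastOMus, 9 to 9 in XMusOCast, 2 to 5 between the XO lines, 0 to 0 in deletion E, 24 to 35 among the 12 lines and 28 to 49 for these against XX Rnf12+/-. DESeq2 gave 1, 7, 9, 5, 0, 38 and 48 in the same order. Its shares of all genes or pairs with an adjusted p were 3.23%, 30.6%, 40.9%, 8.82%, 1.2%, 10.9% and 18.2%. Of 95 other such counts none moved by over 1.5 times, and no value of a single factor changed sign where it was called. A line left with 1 clone was assumed to vary like the other conditions. Shares over all genes or pairs were not worked out with libraries left out, so those counts lack their background.

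With the replicate number as a block the counts were 1, 7, 9, 5, 0, 28 and 43, and Klf2 in deletion D lost its call. The shares of all genes or pairs were then 2.8%, 34.8%, 45.2%, 6.06%, 0.524%, 8.51% and 16%. The labels give no meaning to the numbers. Deviations of same-numbered libraries correlated at 0.802 between XX wild type and XX Rnf12+/-, a hint from the data that their numbers may mark something shared, and at over 0.1 in 31 of 78 pairs of conditions (lowest -0.467, median 0.0025).

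Depth limits the allele shares: Klf2 had 26 to 52 allelic reads in the XO libraries and Nr5a2 27 to 145 in all libraries.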
